A study of Homo sapiens with 6 samples.

Results

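The 43 miRNAs described here come from the *DLK1*-*DIO3* imprinted domain at 14q32, where they form one of the largest miRNA clusters of the human genome. They were selected by name from the 2588 mature miRNAs of a small RNA sequencing table, and rows that carried the same name were summed. Their values were no criterion, although earlier results of these data were known when they were chosen. Parental A549 cells (Ctrl) and A549 cells that had lost the *MIR21* gene (*MIR21*-KO) are represented in it by 3 libraries each. A549 is an established line from a human lung adenocarcinoma, and all cells grew in DMEM with 10% FBS and were harvested 48 h after seeding, with no other treatment. The deletion was made with Cas9 and a pair of guide RNAs, and knockout cells were grown from sorted single cells. How many clones the libraries stand for is not given in the sources used here, so a property of a clone and the loss of *MIR21* cannot be told apart. The study's methods speak of biological replicates for its experiments in general, but the labels do not say whether these libraries came from separate cultures. If they did not, p-values measure only the spread between these libraries, which may be technical.

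At 14q32 the parental copies of the chromosome are used differently. The paternal copy expresses the protein-coding genes *DLK1*, *RTL1* and *DIO3*, whereas the maternal copy expresses non-coding transcripts, among them *MEG3*, *MEG8* and *MEG9*, and the miRNA hairpins that lie within or beside them. Each hairpin is cut into a 5p and a 3p strand, and the base positions 2 to 8 of a mature strand, the seed, pair with target mRNAs. The cluster is known for high expression in brain, placenta and embryonic tissue, for its loss in some pluripotent stem cell lines, and for its reactivation in some lung adenocarcinomas.

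All 43 miRNAs were found in RefSeq, and their 38 hairpins lie on the plus strand of chromosome 14 (GRCh38.p14). They fell into 3 stretches when gaps above 20000 bp were taken as borders. The first, from *MIR493* to *MIR136* (chr14:100869075-100884771), holds 8 hairpins and 10 of the miRNAs in 15697 bp. *MIR370* follows alone after 26414 bp. After a further 110863 bp, the stretch from *MIR379* to *MIR656* (chr14:101022071-101066786) holds 29 hairpins and 32 miRNAs in 44716 bp. The mature sequences are shown 5′ to 3′ as RefSeq gives them, with the seed in capitals. The 10 miRNAs with the highest mean value come first, because they held 91.1% of the summed mean value of the 43.
hsa-miR-381-3p: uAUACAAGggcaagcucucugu
hsa-miR-127-3p: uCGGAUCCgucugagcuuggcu
hsa-miR-379-5p: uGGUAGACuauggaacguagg
hsa-miR-409-3p: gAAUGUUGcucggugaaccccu
hsa-miR-370-3p: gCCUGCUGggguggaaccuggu
hsa-miR-493-3p: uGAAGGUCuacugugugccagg
hsa-miR-889-3p: uUAAUAUCggacaaccauugu
hsa-miR-411-5p: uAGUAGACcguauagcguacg
hsa-miR-134-5p: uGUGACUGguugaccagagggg
hsa-miR-654-3p: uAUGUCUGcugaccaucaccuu

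The 3 miR-376 strands are shown because they are nearly identical, so that short reads of one can be counted for another.
hsa-miR-376a-3p: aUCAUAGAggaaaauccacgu
hsa-miR-376b-3p: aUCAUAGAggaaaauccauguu
hsa-miR-376c-3p: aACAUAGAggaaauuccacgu

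The partner strands of 3 hairpins are shown because their log2 ratio to the other strand spread most between libraries among the 7 hairpins with both strands in the list, and 3 further strands are shown because they had the lowest p-values beside miR-134-5p.
hsa-miR-493-5p: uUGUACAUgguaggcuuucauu
hsa-miR-409-5p: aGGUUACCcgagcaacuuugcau
hsa-miR-369-5p: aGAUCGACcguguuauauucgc
hsa-miR-369-3p: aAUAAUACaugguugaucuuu
hsa-miR-433-3p: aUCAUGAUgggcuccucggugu
hsa-miR-432-5p: uCUUGGAGuaggucauugggugg
hsa-miR-382-5p: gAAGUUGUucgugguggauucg

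Across the 43 miRNAs 42 seeds were found. The only seed held by more than 1 of them was UCAUAGA, shared by miR-376a-3p and miR-376b-3p, whereas miR-376c-3p carries ACAUAGA. A further 7 seeds were shared with another miRNA that had reads in these libraries, for example that of miR-329-3p with miR-362-3p. The length was 20 to 23 bases, and G and C made up 23.8% (miR-369-3p) to 70.0% (miR-665) of the bases, with a median of 45.5%.

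The libraries held 5577287 to 9768152 miRNA reads. miR-21 made up 67.9% ± 2.12 (SD, n = 3) of them in Ctrl against 0.0217% ± 0.00535 (SD, n = 3) in *MIR21*-KO, so that 1945114 to 2966597 reads were left for all other miRNAs in Ctrl against 5575869 to 8669527 in *MIR21*-KO. On the log2 scale miR-21-5p fell by 13.02 (limma, adjusted p = 1.05e-06), which matches the labels. A first principal component with 64% of the variance over all miRNAs tested did not follow the conditions. It placed *MIR21*-KO replicate 3 with Ctrl replicates 1 and 2, and Ctrl replicate 3 with the other two *MIR21*-KO libraries, and the labels, which name 1 service provider for the preparation and sequencing of all 6 libraries, give no technical difference between these sets. The study's methods also name a kit and another sequencing site for small RNA, without saying for which libraries. The marker miRNAs of epithelial cells, the miR-200 family with miR-141-3p, had reads in every library. Their levels were unequal, with mean values in Ctrl and *MIR21*-KO of 1496 and 715 for miR-200b-3p but 1.43 and 0.84 for miR-141-3p.

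Nearly every member of the cluster was detected in every library. At least 1 read was found for 42, 43 and 43 of the 43 in Ctrl replicates 1, 2 and 3 and for 43 in each *MIR21*-KO library, while 868 to 1262 of all 2588 miRNAs had a read. The exception was miR-376b-3p, with 0 of 6871585 reads in Ctrl replicate 1, which allows a share of up to 4.37e-05% (3 reads, counting error only). It had 2 and 48 reads in the other Ctrl libraries and 78, 53 and 7 in *MIR21*-KO. With at least 10 reads, 39, 38 and 43 were detected in Ctrl against 43, 43 and 41 in *MIR21*-KO. Of all 2588 miRNAs, 445, 460 and 551 reached 10 reads in Ctrl against 654, 643 and 541 in *MIR21*-KO. With at least 100 reads, the counts were 22, 23 and 34 in Ctrl against 40, 40 and 29 in *MIR21*-KO at the unequal depths beside miR-21 given above. When each library was thinned to 1945114 reads other than miR-21, 41.8, 43 and 43 members were still expected with a read in Ctrl against 43, 43 and 42.9 in *MIR21*-KO. The counts at 10 and 100 reads were not thinned, and at 100 reads no count over all miRNAs was made. Another imprinted cluster, C19MC on chromosome 19, which is known for expression in placenta, gave 5 reads in all 6 libraries together, from 3 of its 62 miRNAs in the table.

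The share of the cluster among the reads depended on the denominator. The 43 miRNAs made up 1.06% ± 0.0360 (SD, n = 3) of all miRNA reads in Ctrl against 3.34% ± 0.244 (SD, n = 3) in *MIR21*-KO. Of the reads other than miR-21 they made up 3.15%, 3.40% and 3.35% in Ctrl against 3.38%, 3.08% and 3.56% in *MIR21*-KO, with means of 3.30% ± 0.128 and 3.34% ± 0.244 (SD, n = 3). Counting error was at most 0.0255 percentage points either way (95% Wilson interval). On this second scale the groups overlapped and the means differed by less than the SD of either group. As a sum of deposited values, which are TMM-scaled counts per 1000000, the cluster reached 19948, 17856 and 14025 in Ctrl against 21102, 16072 and 25812 in *MIR21*-KO. The *MIR21*-KO mean (20996 ± 4871, SD, n = 3) was 121.5% of the Ctrl mean (17276 ± 3004, SD, n = 3), and the groups overlapped.

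**Figure D1:**
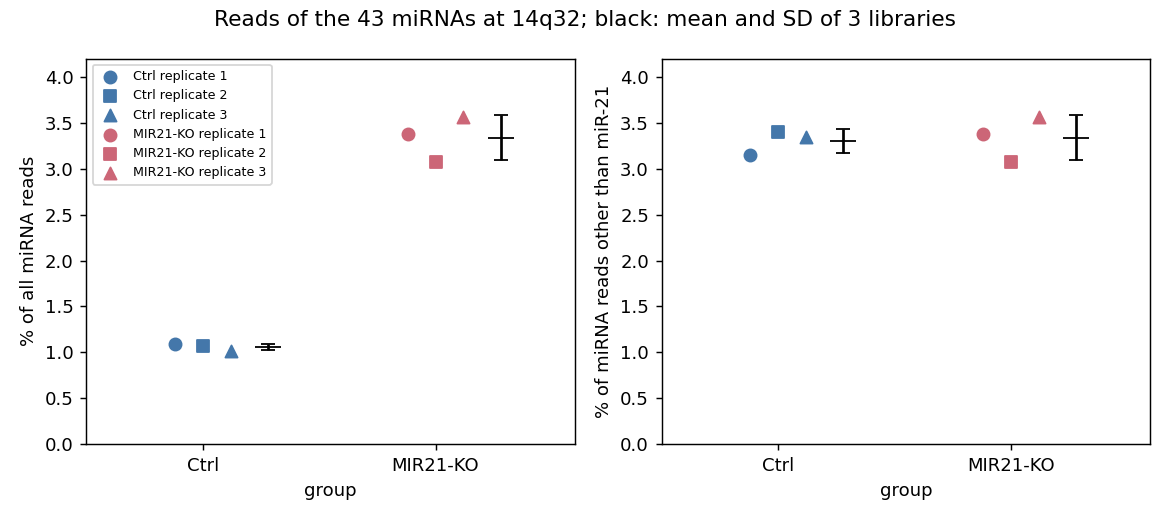
Reads of the 43 miRNAs at 14q32 as a percent of all miRNA reads (left axis) and of the miRNA reads other than miR-21 (right axis), 1 point for each library, with the mean and SD of 3 libraries in black. The Ctrl libraries lie near 1.06% and the *MIR21*-KO libraries near 3.34% on the left, whereas the groups overlap on the right, at 3.15% to 3.40% and 3.08% to 3.56%.

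Levels within the cluster spanned a wide range. The highest mean value was 3364 times the lowest, 4 miRNAs had a mean value of at least 1000 (hsa-miR-381-3p, hsa-miR-127-3p, hsa-miR-379-5p and hsa-miR-409-3p) and 16 of at least 100. miR-381-3p and miR-127-3p alone held 60.8% of the summed mean value and ranked 14 and 21 among all miRNAs of the table. At the other end, hsa-miR-665 had mean values of 1.59 ± 0.548 in Ctrl and 2.37 ± 1.28 in *MIR21*-KO (SD, n = 3). No level is divided by length, since the mature strands are all of 20 to 23 bases.

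**Figure D2:**
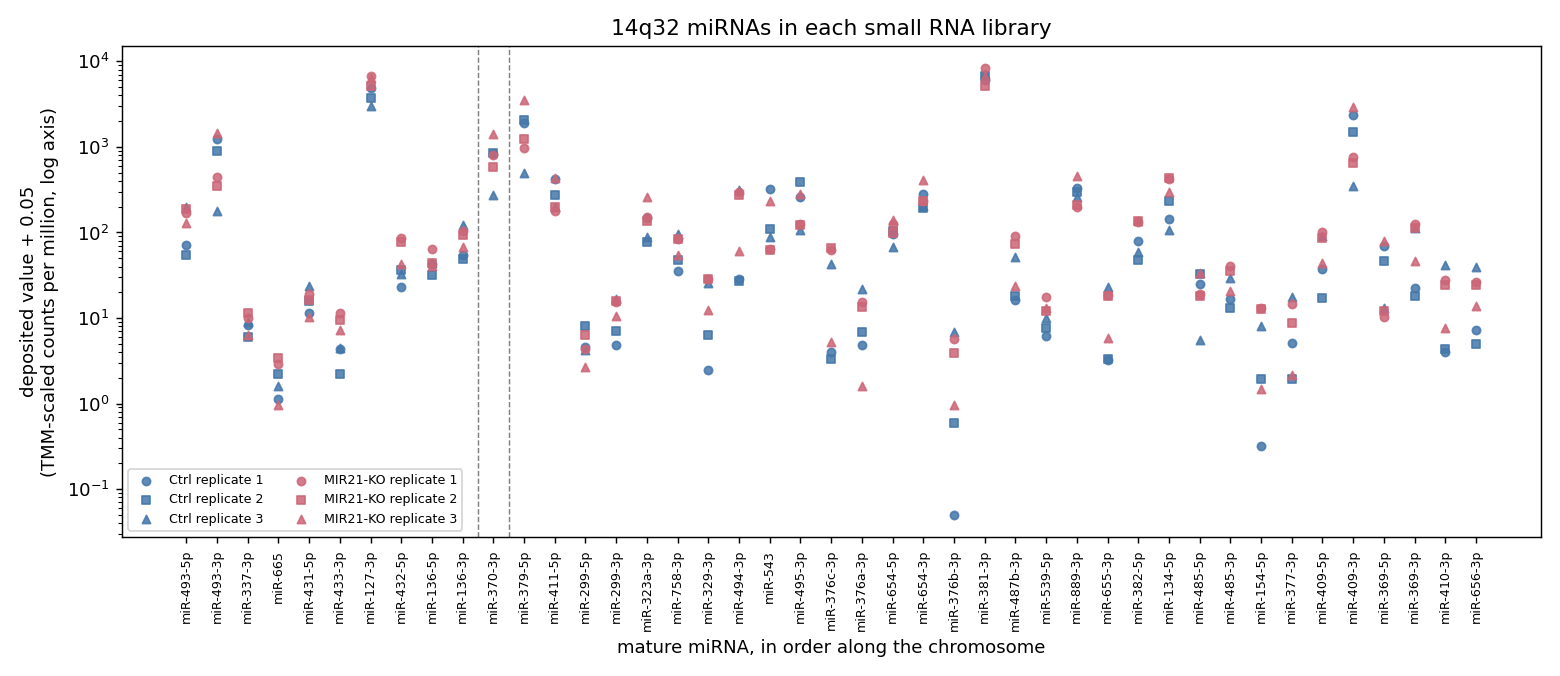
Deposited value (TMM-scaled counts per 1000000, with 0.05 added so that a value of 0 can be drawn, log axis) of each of the 43 miRNAs, in order along the chromosome, 1 point for each library. Dashed lines separate the 3 stretches. The colours of the groups overlap for most miRNAs, and the highest, miR-381-3p and miR-127-3p, lie at 3027 or above in every library.

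The comparison of *MIR21*-KO with Ctrl asked whether the level of these miRNAs changed once *MIR21* was deleted. All 43 reached a value of 1 in 3 or more of the 6 libraries, which was the filter, and were tested with limma on log2(value + 1), among 607 miRNAs in all. At an adjusted p under 0.05, 0 of 43 rose, beside a background of 0.0% of all tested miRNAs, and 0 fell, beside 0.824%. Adjusted p-values from limma with Benjamini-Hochberg adjustment ran from 0.371 to 0.976. edgeR and DESeq2, run on the reads recovered from the values, called 0 of the 43 as well. Of all tested miRNAs edgeR called 0.0% higher and 1.15% lower, and DESeq2 called 0.659% higher and 3.13% lower but gave no adjusted p for 1 of the 43. At an unadjusted p under 0.05 limma, edgeR and DESeq2 each had 4 that were higher and 0 that were lower, where edgeR had 5.11% of all tested miRNAs in each direction and DESeq2 4.45% higher and 7.08% lower. With limma these were miR-433-3p, miR-432-5p, miR-382-5p and miR-134-5p, 9.3% of the 43 beside 6.75% of all tested miRNAs, and the 0 lower stand beside 4.45%. Without Ctrl replicate 3 this count was 15, beside 17.6% of all, and without *MIR21*-KO replicate 3 it was 6, beside 10.9%. Without Ctrl replicate 1 it was 2, beside 3.46%, and without Ctrl replicate 2 it was 1, beside 3.29%. Without *MIR21*-KO replicate 1 or 2 it was 0, beside 1.48% or 1.65%.

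Fold changes leaned to the positive side without passing the test for any single miRNA. 34 of 43 were above 0 (79.1%), beside 61.8% of all tested miRNAs, and the median log2 fold change was 0.60, beside 0.24 over all 607. Scaling each library to its reads other than miR-21 left 30 of 43 above 0 (69.8%), beside 52.6% of all, with medians of 0.34 and 0.02. Scaling to all reads, which counts the missing miR-21 reads as a gain of every other share, put all 43 above 0, beside 94.4% of all. In 6 miRNAs every *MIR21*-KO library lay above every Ctrl library (14% beside 9.56% of all), and in 0 every *MIR21*-KO library lay below (6.59% of all). In a bulk library, fewer cells with a miRNA and less of it per cell cannot be told apart.

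In the first stretch, 9 of the 10 miRNAs had a fold change above 0, with a median of 0.32. Values are given in the order of replicates 1, 2 and 3, and each fold change is the limma difference of log2(value + 1). All hairpins of this stretch, and *MIR370* after it, lie in introns of the non-coding gene AL117190.1, on the same strand. Of these, *MIR493*, *MIR337* and *MIR665* come first. miR-493-5p had values of 70.5, 54.9 and 196 in Ctrl against 168, 188 and 130.3 in *MIR21*-KO, with a log2 fold change of 0.80. miR-493-3p, the other strand of that hairpin and a described inhibitor of metastasis, had 1233, 901 and 177 in Ctrl against 446, 346 and 1437 in *MIR21*-KO and a log2 fold change of 0.06. The libraries low in the 5p strand were those high in the 3p strand, and the groups overlapped for both. miR-337-3p (8.28, 5.95 and 8.89 in Ctrl against 9.87, 11.3 and 6.24 in *MIR21*-KO) and miR-665 (1.07, 2.16 and 1.55 in Ctrl against 2.88, 3.32 and 0.91 in *MIR21*-KO) were scarce, with log2 fold changes of 0.20 and 0.31 and overlapping groups.

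The next 5 hairpins, *MIR431*, *MIR433*, *MIR127*, *MIR432* and *MIR136*, lie opposite an exon of *RTL1*, a retrotransposon-derived gene that is expressed from the other parental copy and whose transcript such antisense miRNAs can cleave. miR-127-3p, known for its activation by demethylating drugs and for targeting *BCL6*, was the most abundant (chr14:100883035-100883056), with 4865, 3702 and 3027 in Ctrl against 6683, 5171 and 6373 in *MIR21*-KO. Every *MIR21*-KO library exceeded every Ctrl library, with means of 3865 ± 929.8 in Ctrl and 6076 ± 799 in *MIR21*-KO (SD, n = 3). The log2 fold change was 0.67 (standard error 0.36, limma, adjusted p = 0.562). miR-433-3p, known for targeting *HDAC6*, had 4.27, 2.16 and 4.37 in Ctrl against 11.4, 9.52 and 7.15 in *MIR21*-KO, again without overlap, and a log2 fold change of 1.19 (standard error 0.41, limma, unadjusted p = 0.0207, adjusted p = 0.371). miR-432-5p had 22.7, 36.2 and 32.5 in Ctrl against 85.7, 77.1 and 42.6 in *MIR21*-KO. Its groups did not overlap either, although Ctrl replicate 2 and *MIR21*-KO replicate 3 came close, and its log2 fold change was 1.11 (standard error 0.47, limma, unadjusted p = 0.0495, adjusted p = 0.434). miR-431-5p had 11.5, 15.7 and 23.6 in Ctrl against 19, 16.2 and 10.1 in *MIR21*-KO and a log2 fold change of -0.14, with Ctrl replicate 3 the highest library. miR-136-5p had 43.3, 31.4 and 44 in Ctrl against 64.5, 44.4 and 40.2 in *MIR21*-KO and a log2 fold change of 0.31. miR-136-3p had 54.2, 48.7 and 122 in Ctrl against 104, 92.3 and 67.6 in *MIR21*-KO and a log2 fold change of 0.33. For these last 3 the groups overlapped.

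*MIR370* lies alone, in an intron of *MEG8* as well as of AL117190.1. miR-370-3p, known for lowering CPT1A, an enzyme of fatty acid oxidation, in liver cells, had values of 832, 839 and 271 in Ctrl against 811, 577 and 1402 in *MIR21*-KO (chr14:100911186-100911207). Ctrl replicate 3 was the lowest and *MIR21*-KO replicate 3 the highest library, and the groups overlapped. The log2 fold change was 0.60 (standard error 0.60, limma, adjusted p = 0.719).

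In the stretch from *MIR379* to *MIR656*, known in neurons as a target of MEF2 factors, 24 of 32 miRNAs had a fold change above 0, with a median of 0.67 and a range of -0.68 to 1.6. Its first hairpins lie in introns of *MEG8*. miR-379-5p, which gives the stretch its name, had 1920.0, 2046 and 494 in Ctrl against 983, 1234 and 3577 in *MIR21*-KO and a log2 fold change of 0.39 (standard error 0.73, limma, adjusted p = 0.832). miR-411-5p, whose seed differs from that of miR-379-5p, had 418, 276 and 201 in Ctrl against 177, 197 and 432 in *MIR21*-KO and a log2 fold change of -0.21 (standard error 0.53, limma, adjusted p = 0.88). In both, *MIR21*-KO replicate 3 was the highest library, and Ctrl replicates 1 and 2 lay above the remaining Ctrl library. miR-299-5p had 4.54, 8.11 and 4.23 in Ctrl against 4.25, 6.2 and 2.6 in *MIR21*-KO and a log2 fold change of -0.32, and miR-299-3p had 4.81, 7.03 and 16.8 in Ctrl against 15.3, 15.9 and 10.4 in *MIR21*-KO and a log2 fold change of 0.64. miR-323a-3p had 147, 78.1 and 87.3 in Ctrl against 152, 138 and 259 in *MIR21*-KO and a log2 fold change of 0.81. miR-758-3p had 35, 48.1 and 96.2 in Ctrl against 84.6, 84.8 and 54.6 in *MIR21*-KO and a log2 fold change of 0.42. The groups overlapped for all 4 of them, and *MIR21*-KO replicate 3 was the highest library for miR-323a-3p but not for the other 3.

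Further along the *MEG8* introns the order of the libraries turned. miR-329-3p was counted at a pair of loci, whose rows gave 2 and 7 reads in Ctrl replicate 1 but 198 and 203 in *MIR21*-KO replicate 1. It had summed values of 2.4, 6.22 and 25.4 in Ctrl against 28.9, 28.7 and 12.2 in *MIR21*-KO and a log2 fold change of 1.39. miR-494-3p had 28.6, 27.3 and 317 in Ctrl against 295, 275 and 60.2 in *MIR21*-KO and a log2 fold change of 1.41 (standard error 1.07, limma, adjusted p = 0.671). In both, Ctrl replicate 3 was close to *MIR21*-KO replicates 1 and 2 and far above the other Ctrl libraries. miR-543 (322, 111 and 88.8 in Ctrl against 64.6, 62.9 and 235 in *MIR21*-KO) and miR-495-3p (258, 384 and 108 in Ctrl against 127, 124 and 282 in *MIR21*-KO) showed the opposite order, with log2 fold changes of -0.57 and -0.42. The groups overlapped in all 4.

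The hairpins from *MIR376C* to *MIR376A1* lie outside annotated host genes. The miR-376 strands, known for A-to-I editing of their precursors in brain, were scarce. miR-376c-3p had 4.01, 3.24 and 42.5 in Ctrl against 62.1, 65.3 and 5.2 in *MIR21*-KO and the highest log2 fold change of the 43, 1.6, with a standard error of 1.20 (limma, adjusted p = 0.671). Leaving out Ctrl replicate 2 gave 1.0 and leaving out *MIR21*-KO replicate 3 gave 2.73 for it, and in the fit with the set as a term, given further on, it was 0.50, below the 1.34 of miR-134-5p. miR-376a-3p, the sum of a pair of loci, had 4.81, 6.76 and 22 in Ctrl against 15.5, 13.3 and 1.56 in *MIR21*-KO and a log2 fold change of -0.26. miR-376b-3p had 0, 0.541 and 6.77 in Ctrl against 5.62, 3.82 and 0.91 in *MIR21*-KO and a log2 fold change of 0.78. All 3 were higher in Ctrl replicate 3 and *MIR21*-KO replicates 1 and 2 than in each of the other libraries, and how reads were split between these near-identical strands is not given in the sources used here. Between them lies *MIR654*, which did not share this order. miR-654-3p had 284, 195 and 203 in Ctrl against 233, 234 and 414 in *MIR21*-KO and a log2 fold change of 0.34 (standard error 0.45, limma, adjusted p = 0.789). miR-654-5p had 94.8, 105 and 67.5 in Ctrl against 125, 99.8 and 140.4 in *MIR21*-KO and a log2 fold change of 0.46.

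Of the 5 hairpins in introns of *MIR381HG*, *MIR381* gave the most abundant miRNA of the cluster. miR-381-3p (chr14:101045968-101045989) had 6125, 6682 and 7117 in Ctrl against 8307, 5087 and 6683 in *MIR21*-KO. The means were 6641 ± 497 in Ctrl and 6692 ± 1609.9 in *MIR21*-KO (SD, n = 3), and the log2 fold change of -0.01 (standard error 0.34, limma, adjusted p = 0.976) was the smallest in size of the 43. This miRNA is the largest single part of the sums over the cluster given above. miR-889-3p had 327, 296 and 262 in Ctrl against 201, 211 and 452 in *MIR21*-KO and a log2 fold change of -0.14 (standard error 0.48, limma, adjusted p = 0.916). miR-487b-3p had 16, 18.1 and 51.6 in Ctrl against 91.8, 73.7 and 23.7 in *MIR21*-KO and a log2 fold change of 1.11, and miR-655-3p had 3.2, 3.24 and 22.9 in Ctrl against 18.3, 17.9 and 5.85 in *MIR21*-KO and a log2 fold change of 0.85. These 3 overlapped between the groups. miR-539-5p did not overlap, with 6.14, 7.57 and 9.88 in Ctrl against 17.6, 12 and 13 in *MIR21*-KO, and had a log2 fold change of 0.78 (standard error 0.40, limma, adjusted p = 0.538).

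The hairpins *MIR382*, *MIR134*, *MIR485*, *MIR154* and *MIR377* again have no annotated host. miR-134-5p, known for restraining dendritic spine growth through *LIMK1*, had 145, 230.3 and 108 in Ctrl against 424, 434 and 296 in *MIR21*-KO. miR-382-5p had 79.6, 47 and 58.4 in Ctrl against 133, 138 and 134 in *MIR21*-KO. Both were higher in every *MIR21*-KO library than in every Ctrl library. The log2 fold change was 1.30 for miR-134-5p (standard error 0.47, limma, unadjusted p = 0.0259, adjusted p = 0.374) and 1.15 for miR-382-5p (standard error 0.43, limma, unadjusted p = 0.0288, adjusted p = 0.393). The 3 *MIR21*-KO values of miR-382-5p lay close together, with an SD of 2.57 around a mean of 135. The other 4 overlapped. miR-485-5p had 25.1, 33 and 5.5 in Ctrl against 19.1, 17.9 and 33.8 in *MIR21*-KO and a log2 fold change of 0.40. miR-485-3p had 16.6, 13 and 28.9 in Ctrl against 40, 35 and 20.5 in *MIR21*-KO and a log2 fold change of 0.71. miR-154-5p, at 1 read in Ctrl replicate 1, had 0.267, 1.89 and 8.04 in Ctrl against 13.1, 12.8 and 1.43 in *MIR21*-KO and a log2 fold change of 1.28. miR-377-3p had 5.07, 1.89 and 17.5 in Ctrl against 14.5, 8.58 and 2.08 in *MIR21*-KO and a log2 fold change of 0.16. Of these, all but miR-485-5p were lowest in Ctrl replicates 1 and 2 and *MIR21*-KO replicate 3.

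The last hairpins, *MIR409*, *MIR369*, *MIR410* and *MIR656*, lie in *MEG9*, *MIR410* in an exon and the others in introns. miR-409-3p had 2384, 1489.9 and 352 in Ctrl against 753, 649 and 2951 in *MIR21*-KO and a log2 fold change of 0.07 (standard error 0.86, limma, adjusted p = 0.968). Its partner miR-409-5p had 37.1, 17 and 91 in Ctrl against 101, 85.1 and 43.6 in *MIR21*-KO and a log2 fold change of 0.88. The libraries high in the 3p strand were again those low in the 5p strand. miR-369-5p had 70.2, 46 and 13.1 in Ctrl against 10.2, 11.9 and 78.9 in *MIR21*-KO and a log2 fold change of -0.68, the lowest of the 43. miR-369-3p, known for binding AU-rich elements of the *TNF* mRNA, had 22.2, 17.8 and 111 in Ctrl against 126, 111 and 46.2 in *MIR21*-KO and a log2 fold change of 1.26. In this pair, too, the libraries high in one strand were those low in the other. miR-410-3p had 4.01, 4.32 and 41.8 in Ctrl against 27.7, 24.6 and 7.54 in *MIR21*-KO and a log2 fold change of 0.82. miR-656-3p had 7.21, 4.87 and 39.5 in Ctrl against 26.5, 24.2 and 13.9 in *MIR21*-KO and a log2 fold change of 0.80. Both had their highest library in Ctrl replicate 3.

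**Figure D3:**
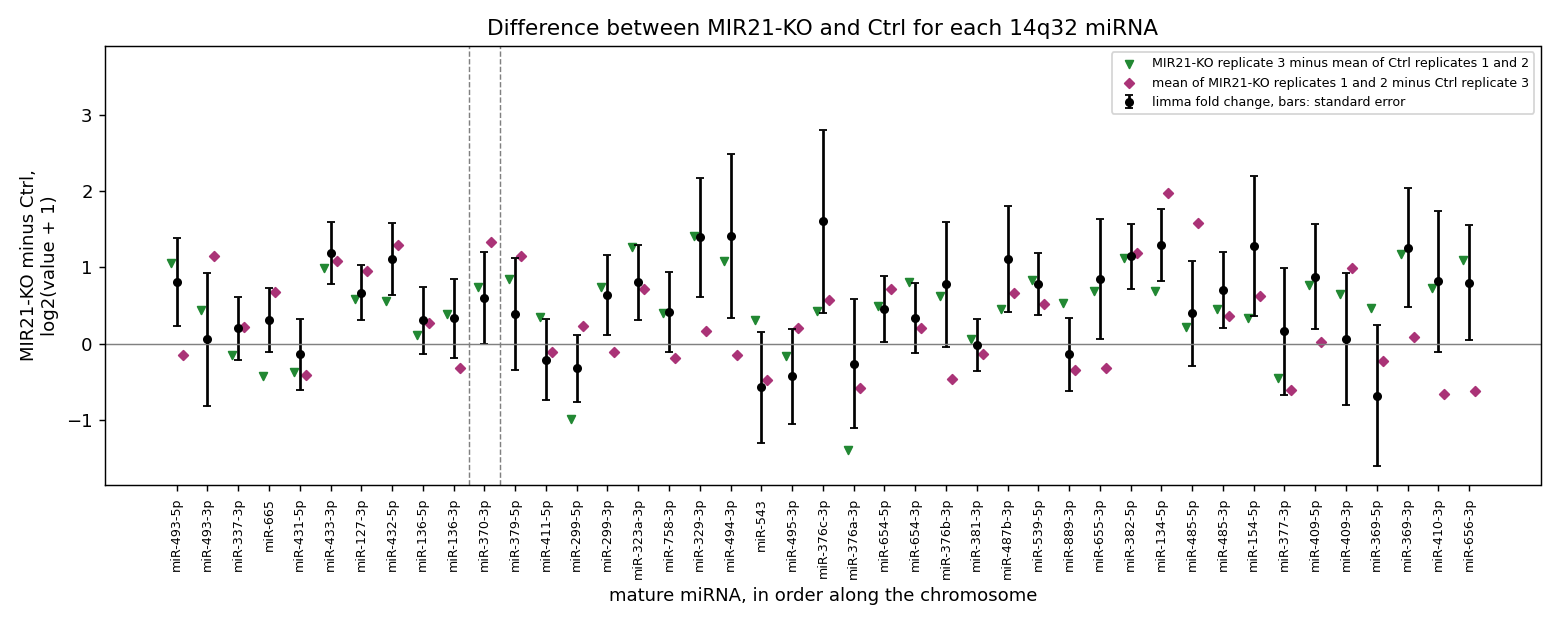
Difference between *MIR21*-KO and Ctrl in log2(value + 1) for each of the 43 miRNAs in order along the chromosome. Black points with bars are limma fold changes and their standard errors over all 6 libraries, green triangles are the difference within the first set of libraries and purple diamonds that within the second. 34 of the 43 black points lie above 0, and 22 miRNAs have both coloured points above 0.

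More miRNAs of this cluster were parted without overlap by the sets of libraries along the first principal component than by the conditions. The same held over all tested miRNAs. The first set held *MIR21*-KO replicate 3 with Ctrl replicates 1 and 2, the second Ctrl replicate 3 with the remaining *MIR21*-KO libraries. In 31 of the 43 miRNAs the sets did not overlap (72.1%), 21 of them higher in the second set and 10 in the first, beside 57.2% of all tested miRNAs, 35.1% higher in the second set and 22.1% in the first. The difference between the sets, first minus second, was taken from a limma fit on log2(value + 1) with condition as the other term. It ran from -3.31 for miR-376c-3p to 2.38 for miR-369-5p. The sets were read from the values of all miRNAs, these included, so these figures are a description and no test between the sets is given.

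Within the sets the condition could be compared, with *MIR21*-KO replicate 3 against Ctrl replicates 1 and 2, and *MIR21*-KO replicates 1 and 2 against Ctrl replicate 3. The difference was above 0 in both sets for 22 of 43 (51.2%, beside 42.0% of all tested miRNAs). It was below 0 in both for miR-431-5p, miR-376a-3p and miR-377-3p (6.98%, beside 26.5%). In the remaining miRNAs of the 43 it had opposite signs in the sets. In each comparison a single library, *MIR21*-KO replicate 3 or Ctrl replicate 3, stood for its condition and entered the difference of every miRNA. For miR-382-5p the within-set differences were 1.12 and 1.20, for miR-433-3p 1.0 and 1.09, and for miR-379-5p 0.85 and 1.16. The last had a wide error over all libraries but a like difference in both sets, and without Ctrl replicate 3 its fold change was -0.28. Others were less alike, with 0.69 and 1.98 for miR-134-5p, 0.56 and 1.30 for miR-432-5p, and 1.10 and -0.62 for miR-656-3p. With a term for the set in the limma fit, 10 of the 43 were called higher at an adjusted p under 0.05, beside 11.7% of all tested miRNAs, and 1 lower, beside 6.43%. The 10 were miR-127-3p, miR-134-5p, miR-323a-3p, miR-370-3p, miR-379-5p, miR-382-5p, miR-409-3p, miR-432-5p, miR-433-3p and miR-493-3p, and the 1 was miR-376a-3p. Log2 fold changes in this fit were 1.34 for miR-134-5p (limma, adjusted p = 0.00996), 1.0 for miR-379-5p (limma, adjusted p = 0.00768) and -0.99 for miR-376a-3p (limma, adjusted p = 0.0433). edgeR with the same term, which was added after the values were seen, called 7 of these 10, beside 8.9% of all, and 0 lower, beside 6.26%, and at an unadjusted p under 0.05 it had 12 higher, beside 17.3%, and 1 lower, beside 12.9%. Because the term was read from the same values, these p-values are not independent of it, and the fit without it, with 0 calls, remains the one the design gives.

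In 7 hairpins both strands belong to the 43, which allowed the balance of strands to be read within each library, free of any scaling. The 3p strand of *MIR369* made up 24%, 28% and 89.5% of its reads in Ctrl replicates 1, 2 and 3 and 92.5%, 90.4% and 36.9% in *MIR21*-KO. For *MIR493* the 3p share was 94.6%, 94.3% and 47.4% in Ctrl against 72.6%, 64.8% and 91.7% in *MIR21*-KO. For *MIR409* it was 98.5%, 98.9% and 79.4% in Ctrl against 88.1%, 88.4% and 98.5% in *MIR21*-KO. For *MIR485* it was 39.7%, 28.2% and 84.0% in Ctrl against 67.7%, 66.2% and 37.8% in *MIR21*-KO. In these 4 the first and second set of libraries did not overlap, and the major strand of *MIR369*, *MIR485* and *MIR493*, though not that of *MIR409*, changed between libraries. The half-widths of the 95% Wilson intervals, which cover counting error only, were at most 7.59 percentage points in these 4. *MIR136*, *MIR299* and *MIR654* had 3p shares of 55.6% to 73.5%, 46.4% to 80% and 65% to 75%, and *MIR299* changed its major strand in Ctrl replicate 2 within a counting interval of 34% to 59.3%. In *MIR136*, *MIR299* and *MIR654* the sets overlapped. The sets were read from the values of all miRNAs, these strands included, so the parting of 4 of the 7 hairpins is a description. Among hairpins of the cluster whose other strand is not in the 43, the sets also parted in some, such as *MIR127*, *MIR379* and *MIR431*. They overlapped in others, such as *MIR382*, *MIR411* and *MIR889*. Ctrl and *MIR21*-KO overlapped in all 7 hairpins with both strands in the 43. The lowest p of a two-sided exact permutation test on the log2 ratio of the strands (0.5 added to each count) was 0.2, where 3 libraries against 3 can reach 0.1, and after Benjamini-Hochberg adjustment over the 7 all were 0.9. The fewest reads of both strands in any library were 35, for *MIR299*.

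The difference between the sets of libraries went with base composition. For the 43 miRNAs the difference, first set minus second, was taken from the fit with condition as the other term. Its Pearson correlation with the share of G and C in the mature strand was 0.44 and its Spearman correlation 0.45. These are given as a description, since these miRNAs share libraries and many share a precursor transcript. Over the 543 tested miRNAs with a RefSeq sequence the values were 0.16 and 0.17. Some strands poor in G and C, such as miR-369-3p and miR-655-3p, were higher in the second set. Others, such as miR-889-3p (33.3%) and miR-495-3p (36.4%), were higher in the first. miR-665, the richest in G and C at 70.0%, had a difference of -0.55. The fold change between the conditions had correlations of -0.03 (Pearson) and 0.003 (Spearman) with G and C over the same 43. The part of base composition in the difference between the sets was not tested.

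The other strands and hairpins of the same clusters were far scarcer. Of 49 such names, 47 had a read, 24 were tested and 0 were called by limma in either direction, with 1 at an unadjusted p under 0.05 (miR-323b-3p, log2 fold change 1.28). Their fold changes were above 0 in 18 of 24, with a median of 0.39. The highest were miR-382-3p, miR-127-5p, miR-323b-3p, miR-431-3p and miR-539-3p, and together the 49 made up 0.0465% to 0.109% of the reads other than miR-21. miRNAs of 14q32 outside the imprinted domain, led by miR-345-5p and miR-342-3p, were measured as well. Of 8 in the list 4 were tested and 0 called by limma, with 0 at an unadjusted p under 0.05, and all 4 had a fold change above 0, with a median of 0.74, beside 0.24 over all 607 tested.

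Marker miRNAs of other cell types did not all stand at 0. The 5 blood cell markers had 419 reads in all, mostly of the erythroid miR-451a, and their summed value ran from 2.26 to 42.7 in Ctrl and from 3.1 to 9.23 in *MIR21*-KO. Among stromal and muscle markers, miR-214-3p had reads in 1 library only and miR-143-3p was the highest. The sum of the 8 ran from 254 to 688 in Ctrl and from 436 to 1303 in *MIR21*-KO, with 5 tested, 0 called and 0 at an unadjusted p under 0.05 in limma. Among neural markers, miR-124-3p had at most 3 reads in a library. The sum of the 4, mostly miR-128-3p, ran from 1223 to 3729 in Ctrl and from 680 to 2264 in *MIR21*-KO, with 0 of 3 called and 2 lower at an unadjusted p under 0.05, miR-9-5p (log2 fold change -1.75) and miR-9-3p (-1.99). Both sums were higher in Ctrl replicates 1 and 2 and *MIR21*-KO replicate 3 than in the other 3 libraries. The 5 epithelial markers summed to 1374 to 2171 in Ctrl against 879 to 1269 in *MIR21*-KO. All were tested, 0 were called and 1 was lower at an unadjusted p under 0.05, miR-200b-3p (log2 fold change -1.10). The part of these markers in the values of the 14q32 miRNAs was not tested.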

How the data were processed

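Small RNA of 3 Ctrl and 3 *MIR21*-KO libraries of A549 cells was sequenced by a service provider. The submitters' processing notes name cutadapt 1.14, Bowtie2 2.3.2, SAMtools 1.5, featureCounts 1.5.3, edgeR 3.18.1 and hg38, whereas the miRNA annotation release and the counting of reads with several loci are not given in the sources used here. The authors deposited 1 signal value per miRNA and library, read counts divided by 1 factor per library. Nonzero values of each library were all (100.0%) integer multiples, within 1e-06, of what 1 read is worth, which gave the reads back. TMM-scaled counts per 1000000 recomputed from them matched to within 1e-09. TMM is meant to remove a change that most miRNAs share, though the median log2 fold change over all tested miRNAs was still 0.24. The authors' own fold changes, p-values and FDRs in the table were not used.

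The 2813 rows were summed by name to 2588 miRNAs, of which 167 had several rows. limma 3.58.1 under R 4.3.3, with lmFit and a trended eBayes, was run on log2(value + 1) with condition as the only term. The 607 miRNAs that reached a value of 1 in 3 or more of the 6 libraries were tested. A pseudocount of 1 understates changes of scarce miRNAs. P-values are two-sided and adjusted by Benjamini-Hochberg over all 607. edgeR 4.0.16 (quasi-likelihood) and DESeq2 1.42.0 on the recovered reads, other scalings, pseudocounts and filters, a replicate block, a set term and each library left out in turn were alternatives. The fit was tested on simulated counts with known changes. These were drawn without a difference between sets of libraries, so they do not show how the fit behaves where the sets part. Shares carry counting error only, with 95% Wilson intervals, since reads were not identified by molecule. The depth was 5577287 to 9768152 miRNA reads, and no pair of replicates agreed within sampling noise (lowest chi-square per degree of freedom 130). The 43 miRNAs, the other lists and the set term were chosen with earlier results of these data known. Every one of the 43 is named, the 10 with the highest mean value and some others with sequences, and of other lists up to 5 with the highest mean value, while the choice of miR-362-3p, miR-451a, miR-124-3p and miR-214-3p was made with their values in view. Sequences come from RefSeq and hairpin positions and host genes from GENCODE 29. Tables and plots were made with pandas 2.3.3, numpy 2.4.6, matplotlib 3.10.9 and scipy 1.17.1 in Python 3.11.15.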

Additional observations from a re-analysis of the deposited data

How the results depend on the processing

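The count of miRNAs called higher stayed at 0 under 18 alternatives and moved under 3, and that of miRNAs called lower moved only with the set term. Scaled to all miRNA reads, 15 of the 43 were called higher, beside 32.3% of all tested, the median log2 fold change was 1.83 and the summed value was 316% of Ctrl. With the set term 10 were called higher and 1 lower, and with edgeR and the set term, an alternative chosen after the values were seen, 7 higher. The scaling itself moved the median of all tested miRNAs, which was 0.24 as deposited, 1.34 scaled to all reads, 0.02 scaled without miR-21, 0.02 under median-of-ratios factors and -0.06 after median centring. The median of the 43 exceeded it by 0.36, 0.49, 0.32, 0.33 and 0.36. When single libraries were left out, the median of the 43 ran from 0.44 to 0.74 and the summed value from 108% to 136% of Ctrl, and the calls stayed at 0. The mean value filter of 10 left 36 of the 43.

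Single fold changes turned sign under some alternative in 18 of the 43, none of them called without the set term or the scaling to all reads. Scaled to all reads, values were 0.83 for miR-299-5p, 0.65 for miR-369-5p, 0.93 for miR-376a-3p, 1.37 for miR-381-3p, 1.17 for miR-411-5p, 1.16 for miR-431-5p, 0.96 for miR-495-3p, 0.80 for miR-543 and 1.25 for miR-889-3p. Under scaling without miR-21, under median-of-ratios factors and under median centring, in this order, they were -0.022, -0.020 and -0.094 for miR-337-3p, -0.040, -0.052 and -0.13 for miR-377-3p, -0.19, -0.18 and -0.23 for miR-409-3p and -0.20, -0.19 and -0.24 for miR-493-3p. edgeR gave -0.018 for miR-377-3p, -0.011 for miR-409-3p and -0.11 for miR-493-3p. DESeq2 gave -0.012 for miR-136-3p, -0.017 for miR-337-3p, -0.26 for miR-377-3p, -0.15 for miR-409-3p, -0.072 for miR-485-5p and -0.25 for miR-493-3p. With the set term they were 0.12 for miR-369-5p, -0.52 for miR-377-3p, 0.12 for miR-411-5p, 0.028 for miR-495-3p and 0.094 for miR-889-3p. edgeR with the set term gave -0.0066 for miR-136-3p, 0.075 for miR-369-5p, -0.14 for miR-376b-3p, -0.69 for miR-377-3p, -0.098 for miR-410-3p, 0.066 for miR-411-5p and 0.053 for miR-889-3p. Leaving out single libraries gave ranges of -0.61 to 0.068 for miR-411-5p, -0.46 to 0.88 for miR-377-3p, -0.74 to 0.60 for miR-376a-3p, -0.28 to 0.75 for miR-379-5p, -0.19 to 0.17 for miR-381-3p, -0.74 to 0.64 for miR-409-3p, -0.37 to 0.12 for miR-431-5p, -0.33 to 0.86 for miR-485-5p, -0.80 to 0.60 for miR-493-3p and -0.51 to 0.071 for miR-889-3p. The cause of these turns was not tested.

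Ctrl and *MIR21*-KO share replicate numbers 1 to 3 in the labels, but libraries of one number did not deviate together, with correlations of -0.79, -0.60 and -0.88, and no library correlated best with its own number. With the replicate number as a block, 0 of the 43 were called in either direction, 0 had an unadjusted p under 0.05, and the median log2 fold change was again 0.60.

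Depth limits the scarcest strands. In Ctrl, miR-376b-3p rested on 0 to 48 reads and miR-154-5p on as little as 1 read, and their fold changes ran from 0.14 to 1.9 and from 0.48 to 1.82 with pseudocounts of 10 and 0.1.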
